A study of Mus musculus with 14 samples.

Results

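Marginal zone and follicular B cells are 2 mature B cell subsets of the spleen. From splenocyte arrays of WT and Sting gt/gt mice, 8 genes that mark these cells or take part in their development and positioning were read. They are Cr2, Fcer2a, Cd1d1, Cd9, Notch2, Dtx1, S1pr1 and S1pr3. Probes were assigned by accession through RefSeq, which gave 10 probes (3 for Cr2 and 1 for each other gene) of 31766 tested, or 8 of 24908 tested genes. All 10 probes were well above background on all 14 arrays, so that no member was lost to the filter on dim probes, and none was saturated.

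The arrays held splenocyte RNA of 7 WT (C57BL/6) and 7 Sting gt/gt mice, 1 array per mouse. Sting gt/gt mice, also called golden ticket or Tmem173gt, carry a Sting allele made by ENU mutagenesis on the C57BL/6 background, and per the study's methods their STING protein is not detected. Mice of both groups were 10 to 14 weeks old when immunized, received CFA with chick type II collagen (CII) in the skin, and were killed 2 weeks later. No mice without immunization were analysed here, the sex of the mice is not given in the sources used here, and the WT mice were bought from a supplier while the Sting gt/gt line came from another laboratory, so that the groups were not stated to be littermates. The Sting transcript itself (Sting1) differed by 0.04 (SE 0.10) on the log2 scale between the groups, and since the allele is known by the missing protein, this does not check the labels.

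The marginal zone lies at the border of the white and red pulp, where B cells meet blood-borne antigen, while follicular B cells recirculate between the follicles of lymphoid organs. Marginal zone B cells have high surface CD21 (encoded by Cr2), CD1d and CD9 and little CD23 (encoded by Fcer2a), and follicular B cells have high CD23. The marginal zone fate needs Notch2 on the B cell and its ligand Dll1 on stromal cells, with Dtx1 as a known target of this signal. The sphingosine 1-phosphate (S1P) receptors S1pr1 and S1pr3 hold marginal zone B cells at the border against the pull of the follicle, and S1pr1 also takes lymphocytes out of lymphoid organs. Most of these genes are used by other spleen cells too, Cr2 by follicular dendritic cells, Cd9 by platelets and megakaryocytes, S1pr1 by T cells and endothelium. In RNA of unsorted splenocytes, fewer cells of a type and less RNA per cell cannot be told apart.

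Arrays of replicates 1 to 3 of both groups were scanned on 1 day (scan day 1) and those of replicates 4 to 7 on another (scan day 2), and results are given pooled and for each scan day. On scan day 2 the 4 Sting gt/gt arrays shared 1 slide and the 4 WT arrays were on other slides, so that slide and genotype cannot be told apart there. On scan day 1, 2 of the 3 slides held both genotypes. Between 30781 and 34400 probes were well above background on each array, and the 75th percentile of processed signal ran from 562 to 766. Values below are log2 processed signal minus the 75th percentile of the same array (log2 signal) unless stated otherwise, and differences are Sting gt/gt minus WT. A gene was called at an unadjusted p below 0.05 in the limma fit over all genes, the threshold used in the study, and p-values adjusted over all genes (Benjamini-Hochberg) are given beside it. The labels only number the samples as replicates, and p-values measure the spread between these samples.

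Promoter sequences are shown for Dtx1, as the Notch target of the set, and for Cr2 and S1pr3, the members whose signal was most like that of Dtx1 across the arrays, as described further on. They are RefSeq sequences of GRCm38.p6, 5′ to 3′ on the strand of the gene, from 250 bases before to 50 bases after the transcription start. Capitals mark TGGGAA, the core of the sequence that RBPJ, the DNA-binding partner of Notch, binds. It was searched on both strands, the reverse strand reading TTCCCA. Cr2 is on the minus strand at chr1:195176670-195176969, S1pr3 on the plus strand at chr13:51408368-51408667 and Dtx1 on the minus strand at chr5:120711620-120711919.
Cr2: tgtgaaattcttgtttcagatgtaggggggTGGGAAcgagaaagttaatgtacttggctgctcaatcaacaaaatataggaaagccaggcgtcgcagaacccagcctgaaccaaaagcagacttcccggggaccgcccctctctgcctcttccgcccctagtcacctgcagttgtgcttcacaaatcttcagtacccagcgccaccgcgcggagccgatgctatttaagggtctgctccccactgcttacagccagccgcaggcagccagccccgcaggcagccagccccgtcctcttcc
S1pr3: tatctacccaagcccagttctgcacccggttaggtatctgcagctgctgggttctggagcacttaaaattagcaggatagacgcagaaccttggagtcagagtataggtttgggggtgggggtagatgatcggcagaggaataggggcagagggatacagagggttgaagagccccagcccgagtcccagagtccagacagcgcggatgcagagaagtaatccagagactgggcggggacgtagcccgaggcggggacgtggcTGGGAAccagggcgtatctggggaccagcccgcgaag
Dtx1: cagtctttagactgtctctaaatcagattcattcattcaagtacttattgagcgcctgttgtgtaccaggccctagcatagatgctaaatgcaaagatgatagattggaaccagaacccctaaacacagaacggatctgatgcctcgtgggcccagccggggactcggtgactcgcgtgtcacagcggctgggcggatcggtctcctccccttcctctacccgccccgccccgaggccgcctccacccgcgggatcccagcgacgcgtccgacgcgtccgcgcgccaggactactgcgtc

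In Cr2 the core began at position -220 from the start, preceded by a G that gives the longer form GTGGGAA, in S1pr3 it began at position 14 after the start, and these letters were not in the Dtx1 window. The table held 8 entries for 6 of the 8 genes, and 5 of the 8 entries had the core. The Cd9 entry had the longer form, 2 of the 3 Fcer2a entries had the core, and the Notch2 entry did not. Over all 32851 promoters in the table, 25.6% had the core on either strand and 6.38% the longer form, which contains the core.

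S1pr3, which couples S1P to migration of marginal zone B cells, was the only one of the 8 genes called between the genotypes over all 14 arrays. Its log2 signal ran from 0.09 to 0.64 (median 0.53) in WT mice and from -0.09 to 0.46 (median 0.01) in Sting gt/gt mice. All 7 Sting gt/gt arrays were below the WT median and 5 of 7 were below the lowest WT array, while the other 2 lay within the WT range. The difference was -0.32 (SE 0.12, 95% interval -0.58 to -0.06, n = 7 and 7), with p = 0.0196 and adjusted p = 0.9998 by limma and p = 0.0204 by a two-sided exact permutation test. At the adjusted threshold 0.00401% of all genes (1 gene) and 0 of the 8 were called by limma. It was called in all 14 fits that left out 1 array, with differences from -0.39 to -0.28. By the same rule 3.48% of all genes were called (1.62% lower) beside the 1 of 8 here. With scan day as a block S1pr3 was still the only call among the 8, and 7.27% of all genes were called.

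**Figure D1:**
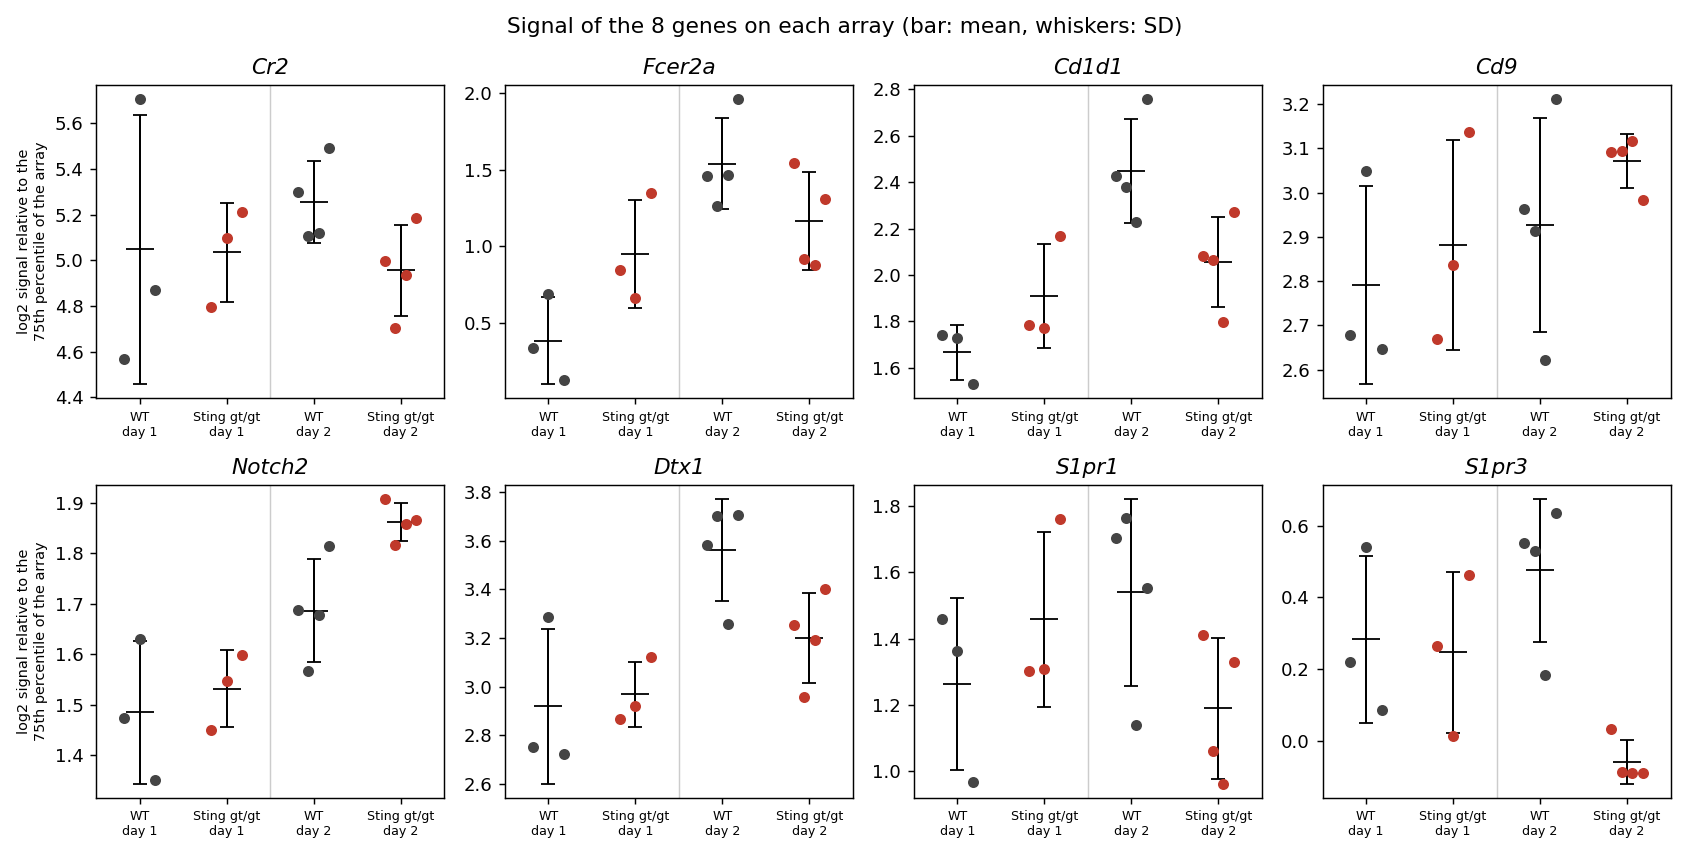
Log2 signal, relative to the 75th percentile of each array, of the 8 genes on the 14 arrays (y axis), by genotype and scan day (x axis). Points are arrays, bars the mean and whiskers the SD, and Cr2 is shown by its brightest probe. S1pr3 on scan day 2 has all 4 Sting gt/gt arrays (-0.09 to 0.03) below the 4 WT arrays (0.18 to 0.64).

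With slide as a random block the difference was -0.20, and with slide as a fixed block -0.10, neither called by limma. Since no slide of scan day 2 held both genotypes, the fixed block takes its value from the 5 arrays on slides of scan day 1 that held both and does not test whether slide accounts for the scan day 2 difference. For the 2 slides of scan day 1 that held both genotypes, the Sting gt/gt array read 0.26 beside WT arrays at 0.22 and 0.54, and 0.01 beside a WT array at 0.09.

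The S1pr3 difference was seen on scan day 2. For scan day 1 the WT arrays read 0.22, 0.54 and 0.09 and the Sting gt/gt arrays 0.26, 0.01 and 0.46. The groups overlapped, and the difference was -0.04 (SE 0.18, exact permutation p = 0.8). The arrays of scan day 2 read 0.55, 0.53, 0.18 and 0.64 in WT and 0.03, -0.09, -0.09 and -0.09 in Sting gt/gt mice. Every Sting gt/gt array was below every WT array, as for 7.43% of all genes on that day, and the difference was -0.53 (SE 0.12, called, adjusted p = 0.0554 by limma). The exact permutation p of 0.0286 is the smallest that 4 against 4 arrays can give, and 3 against 3 cannot go below 0.1. Between the days the genotype difference moved by -0.50 (SE 0.21, called by limma with adjusted p = 0.226, exact permutation p = 0.08 with genotypes permuted within days), on a background where 18.0% of genes passed the unadjusted threshold for such a change. This call was lost in 7 of 14 fits with 1 array left out (WT replicate 1, 3, 4, 5 or 7, Sting gt/gt replicate 1 or 3). From the lowest mean up, the order was Sting gt/gt on scan day 2 (-0.06), Sting gt/gt on scan day 1 (0.25), WT on scan day 1 (0.28) and WT on scan day 2 (0.48), and the ranges of each neighbouring pair overlapped.

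S1pr1, the receptor that carries lymphocytes out into blood and lymph, was not called over the 14 arrays. Its log2 signal ran from 0.97 to 1.76 (median 1.46) in WT and from 0.96 to 1.76 (median 1.31) in Sting gt/gt mice, the groups covering the same range. The difference of -0.12 had a 95% interval from -0.43 to 0.20 (exact permutation p = 0.434). It was 0.19 (SE 0.20) on scan day 1 but -0.35 (SE 0.16, exact permutation p = 0.114) on scan day 2, where WT arrays read 1.70, 1.76, 1.14 and 1.55 and Sting gt/gt arrays 1.41, 1.06, 0.96 and 1.33. On that day 3 of 4 WT arrays were above all Sting gt/gt arrays, and WT replicate 6 lay within their range.

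None of the other S1P receptors was called over 14 arrays. S1pr2, which confines germinal centre B cells, differed by 0.02 (SE 0.17), S1pr4 by 0.21 (SE 0.25) and S1pr5, the receptor of NK cells, by 0.04 (SE 0.18). Of 7 tested genes for S1P synthesis, export and breakdown, 0 were called by limma at the unadjusted threshold, 4 being higher and 3 lower, and the exporter Spns2 differed by -0.04 (SE 0.10). Of 8 genes for signalling and surface control of these receptors, 1 was called. It was Arrb2, an arrestin that takes receptors off the surface, higher by 0.33 (SE 0.15, adjusted p = 0.9998 by limma), 0.07 on scan day 1 and 0.53 on scan day 2. Klf2, the transcription factor that drives S1pr1, differed by -0.01 (SE 0.15), and Cd69, which pulls S1pr1 inside the cell, by -0.26 (SE 0.21).

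Cr2 encodes complement receptors CD21 and CD35, which lower the threshold of B cell activation by antigen coated with complement. Its brightest probe ran from 4.57 to 5.71 (median 5.12) in WT and from 4.71 to 5.21 (median 4.997) in Sting gt/gt mice. The Sting gt/gt values lay inside the WT range, and the difference of -0.18 had a 95% interval from -0.51 to 0.16 (exact permutation p = 0.297). The other probes gave -0.22 (SE 0.20) and -0.30 (SE 0.19), and none of the 3 was called, against 3.43% of all probes.

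**Figure D2:**
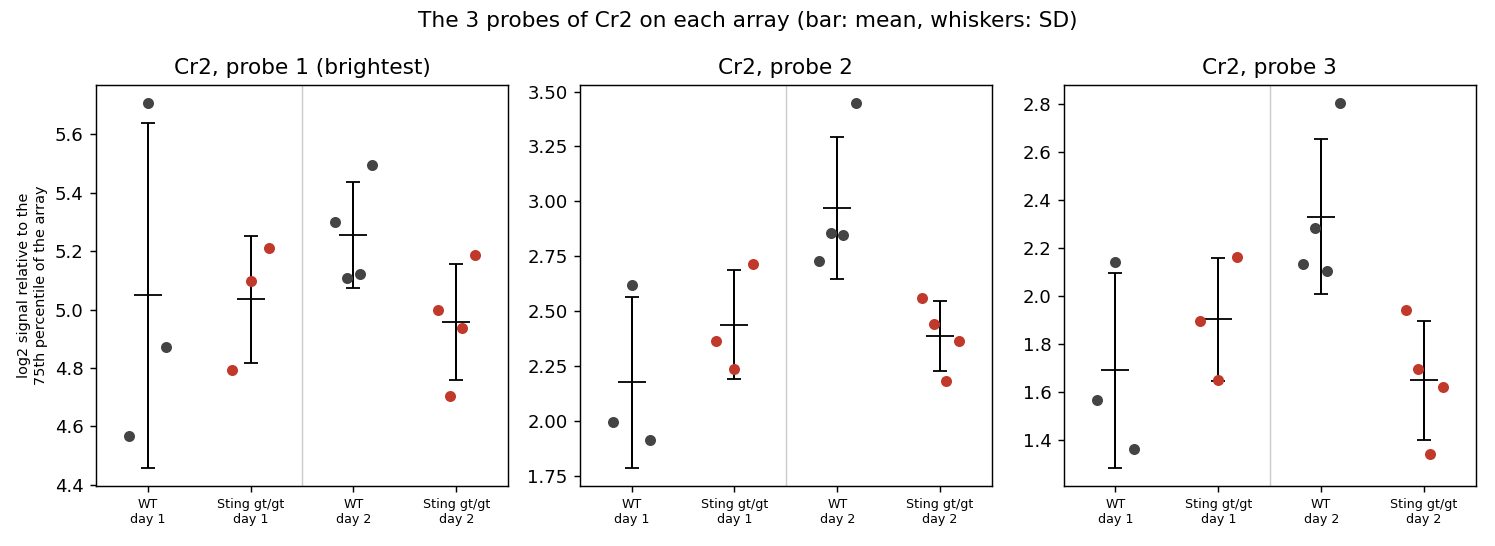
Log2 signal of the 3 Cr2 probes on the 14 arrays (y axis, each panel with its own range), by genotype and scan day (x axis). Points are arrays, bars the mean and whiskers the SD. On scan day 2 the genotypes overlap on the brightest probe and not on the other 2.

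The probes of Cr2 differed on scan day 2. On the second probe the WT arrays of that day read 2.73, 2.86, 2.85 and 3.45 and the Sting gt/gt arrays 2.56, 2.44, 2.18 and 2.37, with no overlap and a difference of -0.58 (called by limma over all probes, exact permutation p = 0.0286). For the remaining probe the WT arrays read 2.13, 2.28, 2.10 and 2.80 and the Sting gt/gt arrays 1.94, 1.69, 1.34 and 1.62, again with no overlap and a difference of -0.68 (called by limma, exact permutation p = 0.0286). For the brightest probe the WT arrays read 5.30, 5.11, 5.12 and 5.49 and the Sting gt/gt arrays 4.997, 4.71, 4.94 and 5.19. There 1 Sting gt/gt array lay within the WT range and the difference was -0.30 (not called, exact permutation p = 0.0857). Of all probes, 11.9% were called lower on scan day 2. The 3 probes on scan day 1 gave differences of -0.01, 0.26 and 0.21, none of them called. Between the days the genotype difference moved by -0.29 on the brightest probe (not called, exact permutation p = 0.484). It moved by -0.84 and -0.90 on the other probes (called by limma, exact permutation p = 0.0243 for each), where 18.0% of genes passed the unadjusted threshold for such a change. The part of the transcript that each probe reads was not analysed here.

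Fcer2a encodes CD23, the low-affinity IgE receptor that marks follicular B cells. Over 14 arrays it ran from 0.13 to 1.96 (median 1.26) in WT and from 0.66 to 1.54 (median 0.92) in Sting gt/gt mice. The WT range enclosed the Sting gt/gt range, and the difference was 0.03 with a 95% interval from -0.53 to 0.58 (exact permutation p = 0.911). The pooled value joined differences of opposite sign. On scan day 1 WT arrays read 0.33, 0.69 and 0.13 and Sting gt/gt arrays 0.85, 0.66 and 1.34, a difference of 0.57 (SE 0.23, called, adjusted p = 0.9997 by limma, exact permutation p = 0.2). The call was lost with median centring (0.49), without scaling (0.50) and with scaling to B cell markers (0.32). Only 1 Sting gt/gt array of that day was below any WT array, and 2.81% of all genes were called higher. On scan day 2 WT arrays read 1.46, 1.26, 1.47 and 1.96 and Sting gt/gt arrays 1.54, 0.92, 0.88 and 1.31, a difference of -0.38 (SE 0.19, not called, exact permutation p = 0.2). The change of the difference between the days was -0.94 (SE 0.31, called by limma with adjusted p = 0.143, exact permutation p = 0.0214), and -0.23, not called, with scaling to B cell markers.

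Cd1d1, which presents lipids to NKT cells and is high on marginal zone B cells, ran the same way. It ranged from 1.53 to 2.76 (median 2.23) in WT and from 1.77 to 2.27 (median 2.07) in Sting gt/gt mice, a difference of -0.12 with a 95% interval from -0.50 to 0.26 (exact permutation p = 0.527). On scan day 1 WT arrays read 1.74, 1.73 and 1.53 and Sting gt/gt arrays 1.79, 1.77 and 2.17. All 3 Sting gt/gt arrays were above the WT arrays, as for 5.98% of all genes, with a difference of 0.24 (SE 0.16, exact permutation p = 0.1, the smallest possible). The WT arrays of scan day 2 read 2.43, 2.38, 2.23 and 2.76 and Sting gt/gt arrays 2.08, 2.07, 1.80 and 2.27. There 3 Sting gt/gt arrays were below every WT array and the difference was -0.39 (SE 0.14, called, adjusted p = 0.152 by limma, exact permutation p = 0.0571). The difference moved by -0.64 between the days (SE 0.22, called by limma with adjusted p = 0.15, exact permutation p = 0.00286).

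**Figure D3:**
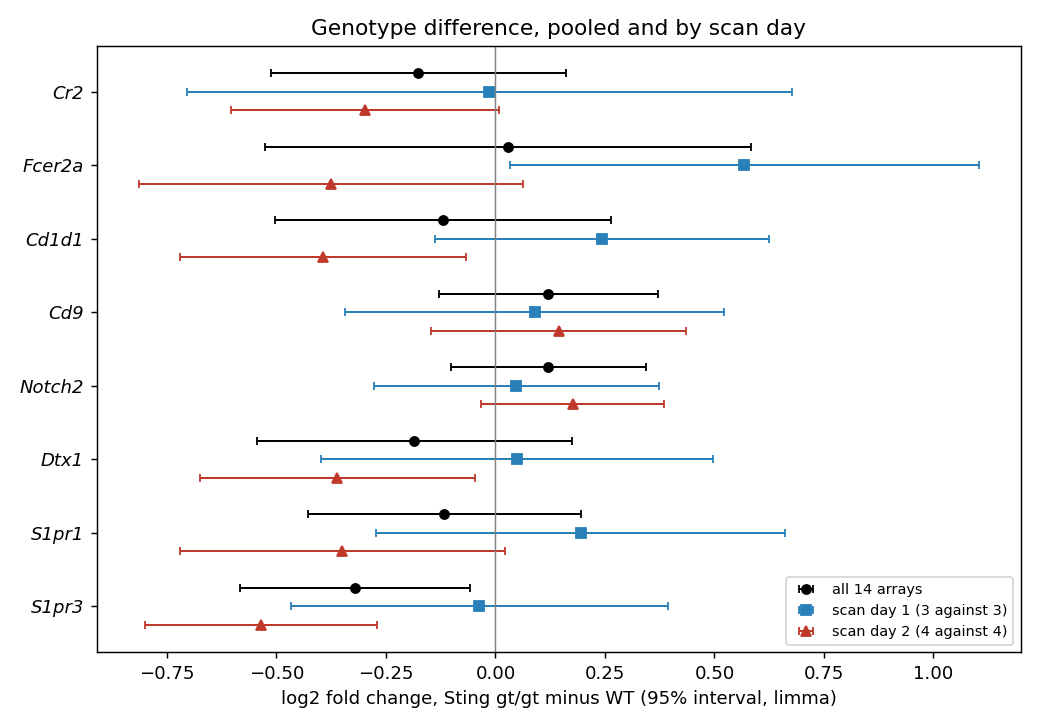
Log2 fold change, Sting gt/gt minus WT, of the 8 genes (x axis) with 95% intervals from limma, over all 14 arrays, over the 6 arrays of scan day 1 and over the 8 arrays of scan day 2. S1pr3 is the only gene whose pooled interval (-0.58 to -0.06) does not include 0, and on scan day 2 those of S1pr3, Cd1d1 and Dtx1 do not.

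Cd9, a tetraspanin of marginal zone B cells that platelets also carry, ran from 2.62 to 3.21 (median 2.91) in WT and from 2.67 to 3.14 (median 3.09) in Sting gt/gt mice. The ranges overlapped almost fully, and the difference of 0.12 had a 95% interval from -0.13 to 0.37 (exact permutation p = 0.284). The scan days gave 0.09 (day 1) and 0.14 (day 2), called on neither.

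The partners of these surface proteins described here were not called over 14 arrays. Cd81, a tetraspanin of the B cell surface, differed by -0.05 (SE 0.15). Limma called 0 of 3 tested genes of CD1d assembly and lipid loading and 0 of 3 CD23 partners at the unadjusted threshold, among them Adam10, the protease that sheds CD23, at -0.03 (SE 0.13). No probe matched Cd1d2, the paralog of Cd1d1.

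Notch2, the receptor that the marginal zone fate requires, ran from 1.35 to 1.82 (median 1.63) in WT and from 1.45 to 1.91 (median 1.82) in Sting gt/gt mice. Over 14 arrays the difference was 0.12 with a 95% interval from -0.10 to 0.34 (exact permutation p = 0.204). The scan day 1 WT arrays read 1.47, 1.63 and 1.35 and Sting gt/gt arrays 1.45, 1.55 and 1.60, within the same range. On day 2 the WT arrays read 1.69, 1.57, 1.68 and 1.82 and Sting gt/gt arrays 1.91, 1.82, 1.86 and 1.87, all of them above the WT arrays, though the closest pair was 1.815 against 1.817. Such separation upward held for 7.31% of all genes on that day. The difference was 0.18 (SE 0.09, not called by limma, exact permutation p = 0.0286, the smallest possible). Permuting genotypes within both days gave p = 0.04 for Notch2 and p = 0.0271 for S1pr3, and no other of the 8 genes was below 0.05 in that exact permutation test.

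Dtx1, a ubiquitin ligase and target of Notch signalling, ran the other way from Notch2 on scan day 2. Over 14 arrays it ranged from 2.72 to 3.71 (median 3.29) in WT and from 2.87 to 3.40 (median 3.12) in Sting gt/gt mice, a difference of -0.19 with a 95% interval from -0.55 to 0.17 (exact permutation p = 0.303). Its scan day 2 WT arrays read 3.58, 3.70, 3.26 and 3.71 and Sting gt/gt arrays 3.26, 2.96, 3.19 and 3.40. There 3 of 4 Sting gt/gt arrays were below the lowest WT array (3.255 against 3.259 for the closest pair), and the difference was -0.36 (SE 0.14, called, adjusted p = 0.166 by limma, exact permutation p = 0.0571). Leaving out WT replicate 4, 5 or 7 or Sting gt/gt replicate 5 or 6 ended this call. The difference on scan day 1 was 0.05 (SE 0.19). Within an array, Dtx1 minus Notch2 ran from 1.58 to 2.14 in WT mice of scan day 2 and was lower in their Sting gt/gt counterparts (1.14 to 1.53), while on scan day 1 the ranges overlapped (1.28 to 1.66 in WT, 1.37 to 1.52 in Sting gt/gt).

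In the rest of the Notch pathway, 1 gene was called over 14 arrays. Rbpj, the DNA-binding partner of all Notch receptors, ran from 0.47 to 0.80 in WT, with Sting gt/gt arrays between 0.51 and 1.25, a difference of 0.30 (SE 0.13, adjusted p = 0.9998 by limma). It differed by -0.03 on scan day 1 and by 0.55 (called by limma) on scan day 2. The others of 6 genes of the nuclear complex were not called, among them Spen, the corepressor that restrains the marginal zone fate, at -0.17 (SE 0.10). Of the Notch targets 0 of 5 were called by limma at the unadjusted threshold, with Hes1 at 0.40 (SE 0.19) and Nrarp at -0.17 (SE 0.34). Nrarp was dim, well above background on only 9 of 14 arrays. With scan day as a block Hes1 and Maml3, a coactivator of the nuclear complex, were also called higher, and Adam17, a protease that can cleave Notch receptors, lower. Limma called 0 of 2 tested ligands, 0 of 3 other receptors, 0 of 10 genes of receptor processing and glycosylation and 0 of 8 ubiquitin and endocytic regulators at the unadjusted threshold. Among these, Dll1 differed by -0.08 (SE 0.18), Notch1 by -0.39 (SE 0.22), and the Fringe glycosyltransferases Mfng and Lfng, which raise the response to Dll1, by -0.10 (SE 0.13) and 0.03 (SE 0.14). Within scan day 2, where 23.3% of all genes were called, the Notch targets went both ways, with Hes1 called higher (0.44) and Hes5 lower. The regulators Dtx4 and Mib1 and the processing gene Aph1a were called higher on that day.

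Taking the 8 genes by scan day, 1 of 8 was called on scan day 1 (Fcer2a, higher), against 3.86% of all genes, and 3 of 8 on scan day 2 (Cd1d1, Dtx1 and S1pr3, all lower), against 23.3% of all genes (12.3% lower). No member passed the adjusted threshold in either (limma), where 1 gene (0.00401%) and 422 genes (1.69%) did. With 1 array left out, Fcer2a kept its scan day 1 call in 2 of 6 fits (lost without WT or Sting gt/gt replicate 1 or 3), S1pr3 its scan day 2 call in 8 of 8 and Cd1d1 in 6 of 8 (lost without WT replicate 7 or Sting gt/gt replicate 6). The median of the 8 differences moved from 0.07 (scan day 1) to -0.36 (scan day 2), beside 0.02 for all genes on both days. On scan day 1, 6 of 8 were higher, and on scan day 2, 6 of 8 were lower. Cr2 is counted here by its brightest probe, which was not called, while its less bright probes were called lower on scan day 2.

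The genes that mark B cells of any kind moved with these. Of 10 B cell markers, such as Ms4a1 and Pax5, 10 were lower over 14 arrays with 1 called, the transcription factor Ebf1 at -0.34 (SE 0.14). Within scan day 2 all 10 were lower and 9 were called, with a median of -0.51, and on scan day 1 8 of 10 were higher, 0 were called by limma at the unadjusted threshold and the median was 0.23. The mean log2 signal of the 10 markers ran from 1.15 to 1.44 in WT and 1.43 to 1.87 in Sting gt/gt mice on scan day 1, and from 1.55 to 2.11 in WT and 1.21 to 1.56 in Sting gt/gt mice on scan day 2. The part of B cell content in the values of the 8 genes was not tested directly.

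**Figure D4:**
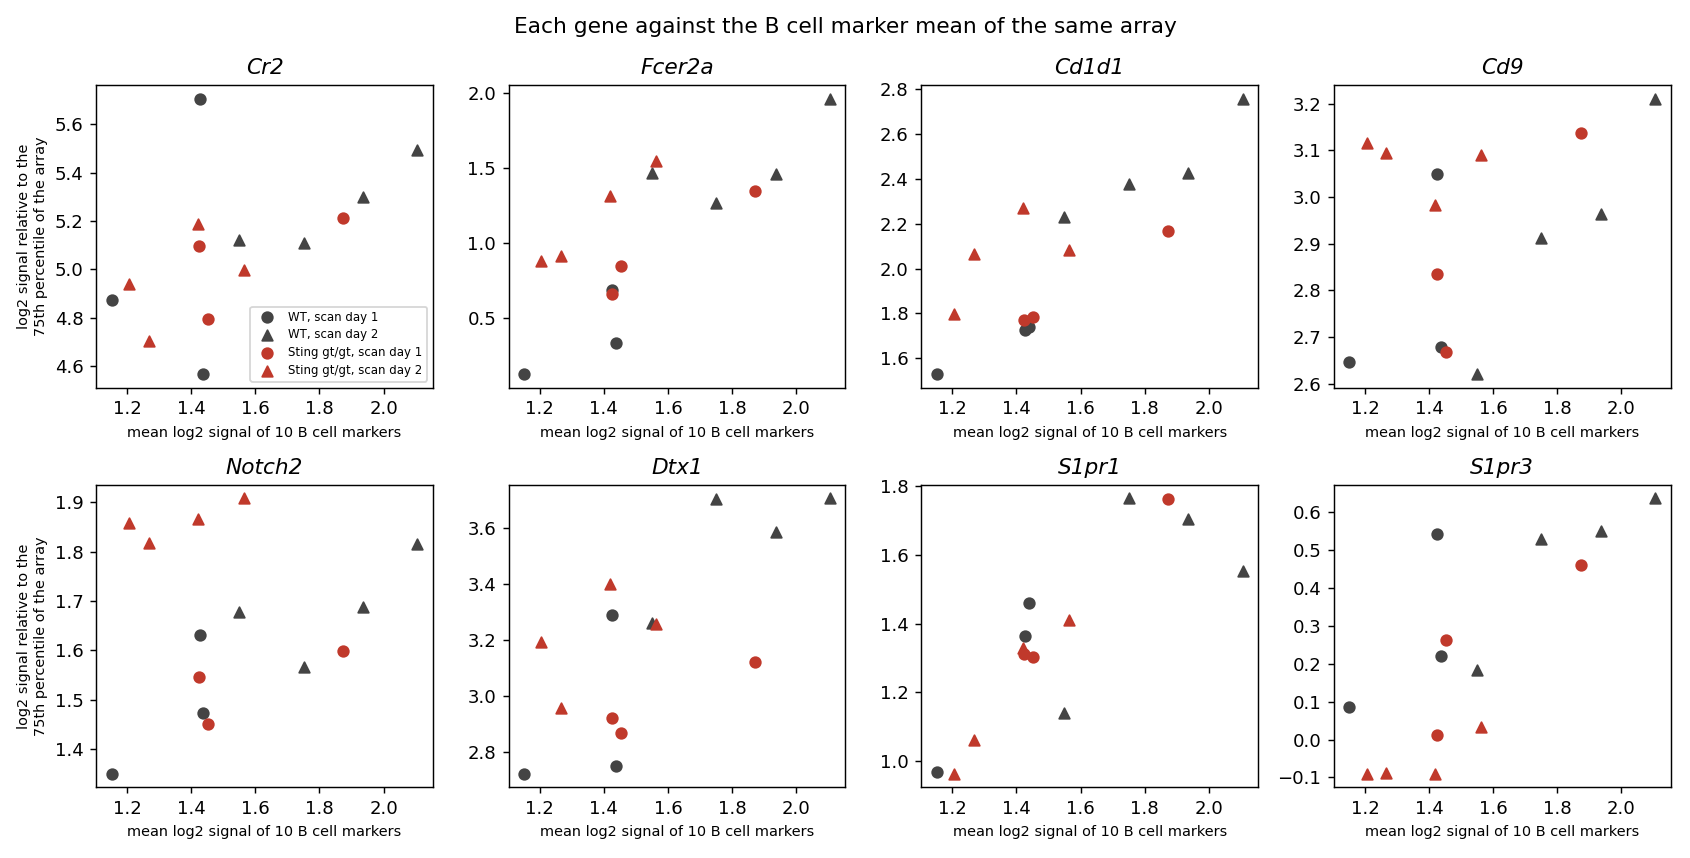
Log2 signal of each of the 8 genes (y axis) against the mean log2 signal of 10 B cell markers on the same array (x axis), for the 14 arrays. Colour gives the genotype and shape the scan day. S1pr1, S1pr3, Cd1d1 and Fcer2a are higher on arrays with a higher marker mean, while Cd9 and Notch2 of the Sting gt/gt arrays of scan day 2 are high where the marker mean is low (1.21 to 1.56).

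When each array was scaled to the mean of these markers, no member was called over 14 arrays (limma, unadjusted threshold, against 3.10% of all genes), and the S1pr3 difference was -0.16 (95% interval -0.46 to 0.15). Within scan day 2, relative to the markers, S1pr3 differed by -0.06, Cr2 by 0.17, Fcer2a by 0.10, Cd1d1 by 0.08, Dtx1 by 0.11 and S1pr1 by 0.12, none of them called. Cd9 differed by 0.62 (SE 0.19, adjusted p = 0.0272) and Notch2 by 0.65 (SE 0.20, adjusted p = 0.025, both by limma). This scaling shifts every gene by the same amount on an array, and 53.0% of all genes were called higher in it. The Cr2 value is that of its brightest probe. The less bright Cr2 probes, at -0.58 and -0.68 on scan day 2 before scaling, were not fitted in it, and the sign may not hold for them.

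Across single arrays, after the mean of each scan day was removed, the correlation with the B cell marker mean over 14 arrays was 0.94 for Cd1d1 (Spearman's rho 0.86), 0.87 for S1pr1 (0.86), 0.86 for Fcer2a (0.68), 0.85 for S1pr3 (0.87), 0.76 for Dtx1 (0.71) and 0.53 for Cr2 (0.48). It was 0.31 for Cd9 (0.17) and -0.06 for Notch2 (-0.16). Within scan day 1 (6 arrays) Cd9 had 0.73 and Notch2 0.68, above S1pr3 (0.57), Dtx1 (0.53) and Cr2 (0.24), and within scan day 2 (8 arrays) Cd9 had 0.06 and Notch2 -0.40 while the other 6 genes lay between 0.83 and 0.94. The scan day 2 values join both genotypes. Within the 4 Sting gt/gt arrays of that day Notch2 had 0.79 and Cd9 -0.365. There Cr2 had 0.51, Dtx1 0.53, Cd1d1 0.61, S1pr3 0.825, S1pr1 0.98 and Fcer2a 0.99. Without the 2 arrays farthest from the median marker level, the correlations over both days were 0.87 for Cd1d1, 0.91 for S1pr1 and 0.70 for Fcer2a. They were 0.81 for S1pr3, 0.70 for Dtx1, 0.37 for Cr2, -0.18 for Cd9 and -0.35 for Notch2. These are descriptions with no test, since the arrays share their scaling and their slides. Among the 8 genes, the closest pairs were Dtx1 with S1pr3 (0.85), Cr2 with Dtx1 (0.84), Fcer2a with Cd1d1 (0.84) and Cd1d1 with S1pr1 (0.80). S1pr3 had 0.76 with Cd1d1, 0.75 with S1pr1 and 0.63 with Cr2, and Dtx1 had 0.75 with S1pr1. The promoters of Cr2, S1pr3 and Dtx1 are those shown above.

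**Figure D5:**
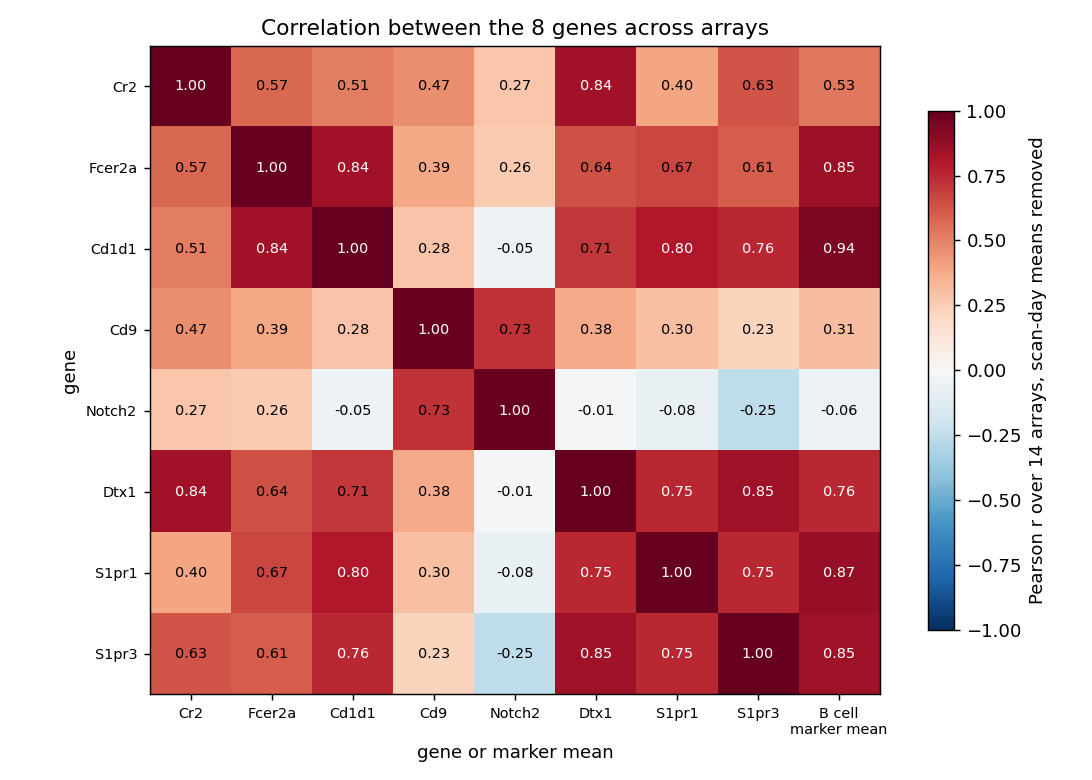
Pearson correlation over the 14 arrays, with the mean of each scan day removed, between each pair of the 8 genes and with the mean of 10 B cell markers (last column). Rows and columns are genes and colour runs from -1 (blue) to 1 (red). Notch2 correlates with Cd9 (0.73) and lies between -0.25 and 0.27 with the other 6 genes.

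Across all genes with a symbol, those most like each of the 8 over the 14 arrays were, with the correlation, Bend5 (0.92) and Doxl1 (0.90) for Cr2, Fcrl1 (0.95) and Srpk3 (0.94) for Fcer2a, and Dram2 (0.96) and Zscan26 (0.95) for Cd1d1. For Cd9 they were Orai3 (0.93) and Ptpn6 (0.91), for Notch2 Lrrc51 (0.95) and Pramel12 (0.91), and for Dtx1 Ralgds (0.96) and Ebf1 (0.93). For S1pr1 they were Shisa5 (0.93) and Rasgrp1 (0.93), and for S1pr3 Sema7a (0.95) and Hes5 (0.93). Fcrl1 and Ebf1 are genes of B cells, the first a surface receptor and the second a transcription factor. Hes5 is among the Notch targets described above.

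Other genes of the same subsets were not called over the 14 arrays. Of 12 further marginal zone genes 0 were called over 14 arrays by limma at the unadjusted threshold (6 higher, 6 lower), with Fcrl5 at -0.11 (SE 0.18). Within scan day 2, where 23.3% of all genes were called, 2 were called higher (the integrin chains Itgal and Itgb1) and 1 lower (the scavenger receptor Cd36, -0.61, adjusted p = 0.0488 by limma). In RNA of unsorted splenocytes, which cells these signals came from was not tested. Of 8 tested follicular genes 0 were called over 14 arrays (2 higher, 6 lower), with Cxcr5, which draws B cells into follicles, at -0.27 (SE 0.19). Cxcr5 (-0.59) and Cd55 (-0.40) were called lower on scan day 2, while Cd55 was called higher on scan day 1.

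Between the scan days, which also hold different mice and slides, 4 of the 8 genes differed in the scanner values. With genotype in the model, Fcer2a was higher on scan day 2 by 0.68 (adjusted p = 0.0137), Cd1d1 by 0.46 (adjusted p = 0.0145), Dtx1 by 0.44 (adjusted p = 0.0134) and Notch2 by 0.27 (adjusted p = 0.00979, all by limma). Cd9 (0.16), Cr2 (0.06), S1pr1 (0.00456) and S1pr3 (-0.06) were not called. Over all genes 38.8% passed the adjusted threshold between the scan days (17.1% higher). In Fcer2a the order of the 4 means was WT scan day 1 (0.38), Sting gt/gt scan day 1 (0.95), Sting gt/gt scan day 2 (1.16) and WT scan day 2 (1.54), with SDs from 0.28 to 0.35, and each neighbouring pair overlapped. In Cd1d1 the order was the same, at 1.67, 1.91, 2.05 and 2.45 with SDs from 0.12 to 0.23, and only the first pair did not overlap.

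The deposited log2 table, whose processing is not given in the sources used here, gave no call between the scan days at the adjusted threshold (0 of 31766 probes by limma, 1.33% unadjusted, against 39.0% adjusted in the scanner values). In it S1pr3 differed by -0.30 (SE 0.12, called, adjusted p = 0.597 by limma) over 14 arrays, and 7.73% of all probes were called. No other probe of the 8 genes was called. For scan day 2 the table gave -0.50 for S1pr3, -0.41 for Dtx1, -0.41 for Cd1d1, -0.36 for S1pr1 and -0.60 and -0.68 for the less bright Cr2 probes, all called by limma, where 23.0% of probes were called. Notch2 differed by 0.12 there, not called, and its groups overlapped.

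Markers of other spleen cells that use these genes are given for comparison. Over 14 arrays limma called 0 of 6 follicular dendritic cell, 0 of 9 platelet and megakaryocyte, 0 of 8 T cell, 0 of 7 endothelial, 0 of 8 macrophage and monocyte, 0 of 8 dendritic cell, 0 of 5 NK cell, 0 of 6 germinal centre and 0 of 6 plasma cell markers at the unadjusted threshold. It called 1 of 6 immediate early and stress genes (Hspa1b, -0.59). With scan day as a block 2 of 6 plasma cell markers (Sdc1 and Tnfrsf17) and 1 of 6 follicular dendritic cell markers (Bgn) were called higher. Within scan day 2, where 23.3% of all genes were called, 4 of 6 plasma cell markers were called higher (Sdc1 by 0.84, Tnfrsf17 by 0.76, Jchain by 0.58 and Xbp1 by 0.30) and 4 of 6 erythroid markers lower. Within scan day 1, 4 of 6 plasma cell markers had lower values, with Jchain called. On scan day 2 the list mean of the plasma cell markers ran from 0.78 to 1.12 in WT, with the Sting gt/gt arrays between 1.19 and 1.58. That of the erythroid markers on scan day 2 ran from 5.86 to 6.18 in WT, with the Sting gt/gt arrays between 5.55 and 5.79. The part of these cells in the values of the 8 genes was not tested.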

How the data were processed

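Splenocyte RNA of 7 WT and 7 Sting gt/gt mice was labelled and hybridized with Agilent's one-colour protocol. Intensity came from the authors' scans read by Agilent Feature Extraction (version 11.0.1.1 in the headers), which subtracts background and leaves arrays unscaled. The deposited log2 table holds 1 value per probe and array (column medians 5.49 to 5.52, r = 0.9968 to 0.9986 with the scanner values); its normalization is not given in the sources used here.

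From the intensity, log2 was taken after scaling each array to the 75th percentile of its 59305 non-control spots; 50 to 154 flagged spots per array were left out and spots of a probe averaged. A probe was tested if well above background on at least 7 of 14 arrays. A gene was its brightest tested probe (24908 genes, 14729 with a symbol). Names came from RefSeq accessions (GRCm38.p6 table, used for names and promoters only; the arrays' build differs), which matched 58.3% of probes. The number of arrays limits the precision.

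Fits used limma 3.58.1 in R 4.3.3 on all genes, without covariates as the main setting; permutation tests were exact and two-sided (Python 3.11.15, scipy 1.17.1). Tested on simulated data of 24897 genes with 200 changed by 1 on the log2 scale between 7 and 7 arrays, the fit recovered 154 and made 4 false calls at an adjusted p below 0.05. False calls at the unadjusted threshold, by which genes are called here, are not given by these counts. That change is larger than any pooled difference of the 8 genes, and recovery of smaller changes was not tested. The simulated noise was independent between arrays and held no slide effect. The members and lists (26 lists of pathway and cell type genes) were chosen with earlier results of these data known. Named were the 8 members, a fixed set of pathway genes, up to 3 called genes of each list and the 2 genes most like each member; genes named on scan day 2 alone were chosen after their values were seen. Same-numbered arrays correlated in their deviations from the group means at 0.156 to 0.533. With scan-day means removed, these correlations ran from -0.408 to 0.248. The numbers were therefore not taken to pair the arrays, and the main fit is unpaired. Under the replicate block 1416 genes were called in place of 868. Alternatives covered scaling, background, filters, probes, blocks, tests and single arrays; those within scan days, and scaling to B cell markers for the scan days, were chosen after seeing the data. Results of some genes on these lists are not reported here.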

Additional observations from a re-analysis of the deposited data

Results flagged for a closer look

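In the 4 Sting gt/gt arrays of scan day 2, replicate 4 stood apart from the others in S1pr3, at 0.033 against -0.09 for the other 3, a gap of 0.991 of the group's range. It was the only such array in 40 groups tested, where chance flags about 1 in 20. The genotype difference of Fcer2a on scan day 2 minus that on scan day 1 was -0.944 (exact permutation p = 0.0214, genotypes permuted within days), and that of Cd1d1 -0.637 (exact permutation p = 0.00286). Scaled to the B cell markers these were -0.227 and 0.0807, neither called. In both genes the 14-array difference joins values of opposite sign, and slide and genotype cannot be told apart on scan day 2. The less bright Cr2 probes also moved between the days, by -0.844 and -0.895 (exact permutation p = 0.0243 for each).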

How the results depend on the processing

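The S1pr3 difference kept its direction in all alternatives run and its call in 30 of 34. It was -0.156 when scaled to the B cell markers, -0.201 with slide as a random block, -0.0982 with slide as a fixed block and -0.0365 within scan day 1, none called; the cause was not tested. The number of the 8 genes called was 0 under B cell marker scaling and under either slide block, 2 with array weights and an intensity trend (Notch2, 0.185, was added) and 3 within scan day 2. The pooled sign of Fcer2a was not stable. It was -0.0255 without scaling, -0.0834 with array weights, 0.57 within scan day 1 (called, but not with median centring, without scaling or with B cell marker scaling), -0.376 within scan day 2 and -0.124 to 0.181 with 1 array left out. Signs also turned for Cd1d1 (0.0441 with B cell marker scaling, 0.134 with slide fixed, 0.243 within scan day 1), S1pr1 (0.0481, 0.0845 and 0.195 in the same settings), Cd9 (-0.0299 with slide fixed) and Dtx1 (0.0492 within scan day 1). Within scan day 2 Cd1d1 (-0.393) and Dtx1 (-0.362) were called. Under the replicate block, which pairs same-numbered arrays, the S1pr3 difference was -0.321, still called, and no other call among the 8 genes changed. The gene count of 868 was 1928 in the deposited table, 4625 with array weights, 1416 under the replicate block, 445 with slide as a random block, 1812 with scan day as a block and 5805 within scan day 2. With 1 array left out it ran from 496 (without Sting gt/gt replicate 6; 539 without replicate 5) to 1967 (without Sting gt/gt replicate 1). Its split (464 higher, 404 lower) was 250 and 568 with median centring, 149 and 614 without scaling, 742 and 29 with B cell marker scaling, 700 and 261 within scan day 1.

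Signs also turned in comparisons with scan day. Between the scan days, S1pr1 was -0.0174 with quantile normalization, S1pr3 0.122 with median centring, Cr2 -0.0744 and S1pr1 -0.134 with B cell marker scaling, and Cd9 -0.0618 and S1pr3 0.0962 in the deposited table; with 1 array left out, Cr2 ran from -0.0589 to 0.19, S1pr1 from -0.094 to 0.105 and S1pr3 from -0.13 to 0.0221. For the change of the genotype difference between the days, Cd9 was -0.0616 with quantile normalization, -0.0555 in the deposited table and -0.0739 to 0.183 with 1 array left out, and B cell marker scaling gave 0.432 for Cr2, 0.0807 for Cd1d1 (-0.637 and called before), 0.307 for Dtx1, 0.172 for S1pr1, 0.219 for S1pr3 (-0.498 and called before) and -0.227 for Fcer2a, which was no longer called. On scan day 1 Notch2 was -0.0302 with median centring and -0.0211 without scaling, and Dtx1 -0.0287 and -0.0196. B cell marker scaling gave -0.00203 for Cd1d1, -0.156 for Cd9, -0.198 for Notch2, -0.196 for Dtx1 and -0.0504 for S1pr1 on that day. With 1 array left out it was -0.254 to 0.315 for Cr2, -0.144 to 0.093 for S1pr3, -0.0197 to 0.121 for Notch2, -0.0502 to 0.233 for Dtx1 and -0.0387 to 0.218 for Cd9. On scan day 2 B cell marker scaling gave 0.173 for Cr2, 0.0959 for Fcer2a, 0.0787 for Cd1d1, 0.11 for Dtx1 and 0.122 for S1pr1, ending the calls of Cd1d1 and Dtx1. The Cr2 values in this paragraph are those of its brightest probe. All 10 probes were well above background. Scan day 1 holds 3 arrays per genotype, and no slide of scan day 2 holds both genotypes.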
